A study of Mus musculus with 15 samples.

Results

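A set of 10 angiogenic and vasoactive genes was followed in cumulus cells, which form the layer of follicle cells closest to the oocyte. The set held 7 genes for secreted signals (Vegfa, Vegfb, Vegfc, Apln, Edn2, Edn1 and Angpt2) and 3 genes for receptors (Flt1, Kdr and Aplnr), and its members were taken by gene symbol from the authors' table. They had 12 of the 20855 gene probes of that table, which named 15059 genes. Vegfa and Kdr had 2 probes each. The probes of Edn1 and 1 of those of Kdr were printed on 10 spots, whereas the others had 1 spot.

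The cells came from B6CBAF1/J mice at 3 stages, with 5 arrays per stage, each from a pool of several animals. At NC1, cells were stripped by pipetting from unexpanded complexes of juvenile mice (3-week-old) whose oocytes, in prophase I, were labelled as developmentally incompetent. At C1, they were taken in the same way from adults (8-week-old) with competent oocytes, also in prophase I. At C2, the complexes had expanded and were flushed from the oviduct of 8-week-old mice superovulated with PMSG and hCG, their oocytes stood in metaphase II and were fully competent, and the cells were dispersed with hyaluronidase. Age therefore goes with the step from NC1 to C1. Hormone treatment, site of collection and enzyme go with the step from C1 to C2, and none of these can be told apart from the stage. No transgene or mutant allele is named for any group.

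Vascular endothelial growth factor A (Vegfa) is the principal growth signal for blood vessels and acts on endothelial cells through the receptors encoded by Kdr and Flt1. Vegfb binds Flt1, and Vegfc is best known for the growth of lymphatic vessels. Apelin (Apln) signals through Aplnr, endothelins (Edn1 and Edn2) are peptides that contract smooth muscle, and angiopoietin 2 (Angpt2) loosens vessels through the receptor Tek. In the growing follicle the blood vessels lie in the theca, outside the basement membrane, while the granulosa and cumulus layers within it have none until ovulation. Receptors of the endothelium are thus read here beside the other markers of that cell type.

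Levels are log2 signals relative to the array median. This is the median signal, on each array, of the probes well above background in at least 4 of 5 arrays of every stage. A probe at 0 equals the median of these probes, and a difference of 1 is a doubling. Between 18368 and 24496 gene probes were well above background per array. Levels of different probes cannot be set against each other. The cells labelled as cumulus carried granulosa markers at all stages, with 16 of 16 such genes above background at NC1 and at C1 and 15 of 16 at C2. Transcripts of other cell types were present as well. Of 24 endothelial genes, 14 were above background in at least 4 of 5 NC1 arrays, 14 in C1 arrays and 8 in C2 arrays. The summed signal of 6 red blood cell genes was between 73.5 and 439 array medians at NC1, where replicates 1 and 2 were highest, against 10.5 to 43.6 at C1 and 9.93 to 25.3 at C2. In RNA from a whole pellet, fewer cells of a type and less RNA per cell cannot be told apart.

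Promoter windows of 250 bases before a listed start of transcription were available for 8 of the 10 members (RefSeq, GRCm38.p6), not for Angpt2 and Aplnr. Of these, 4 are shown, from 3 ligands that were higher at a later stage (Vegfa, Apln and Edn2) and from the receptor Flt1, which was lower at C2. The window of Vegfc, also higher at C2, is not shown. Vegfa lies on chromosome 17 (gene 46016993 to 46032377, minus strand), and its window is chr17:46032378-46032627. Apln is on the minus strand of chromosome X (48025146 to 48034853), with the window chrX:48034854-48035103. The window of Edn2 (chromosome 4, 120161206 to 120167360, plus strand) is chr4:120160956-120161205, and that of Flt1 (chromosome 5, 147561604 to 147726438, minus strand) is chr5:147726012-147726261, before a listed start that lies inside this gene interval. They are printed 5′ to 3′ on the strand of the gene, and capitals mark matches on either strand to the hypoxia response core (ACGTG or GCGTG), the core of the cyclic AMP response element (TGACG) or that of nuclear receptor elements (AGGTCA).
Vegfa: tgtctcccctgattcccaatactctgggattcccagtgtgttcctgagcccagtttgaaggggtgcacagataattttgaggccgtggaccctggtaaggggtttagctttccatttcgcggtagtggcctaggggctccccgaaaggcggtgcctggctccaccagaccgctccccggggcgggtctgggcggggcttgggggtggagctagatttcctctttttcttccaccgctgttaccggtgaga
Apln: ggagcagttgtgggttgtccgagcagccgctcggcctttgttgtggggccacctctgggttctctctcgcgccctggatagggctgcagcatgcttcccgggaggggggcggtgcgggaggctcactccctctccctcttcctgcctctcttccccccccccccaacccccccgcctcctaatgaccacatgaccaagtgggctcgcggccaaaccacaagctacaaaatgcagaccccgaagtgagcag
Edn2: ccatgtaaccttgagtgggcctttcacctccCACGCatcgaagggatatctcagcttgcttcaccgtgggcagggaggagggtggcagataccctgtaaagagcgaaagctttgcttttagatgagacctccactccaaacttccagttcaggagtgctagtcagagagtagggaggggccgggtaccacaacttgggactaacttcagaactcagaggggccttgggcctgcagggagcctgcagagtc
Flt1: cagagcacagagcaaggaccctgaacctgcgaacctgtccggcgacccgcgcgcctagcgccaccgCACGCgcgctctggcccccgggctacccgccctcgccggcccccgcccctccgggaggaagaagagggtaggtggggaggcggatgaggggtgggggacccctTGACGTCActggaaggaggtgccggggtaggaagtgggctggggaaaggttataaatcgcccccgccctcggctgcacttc

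The hypoxia response core occurred in 5 of the 9 windows of the members, the cyclic AMP core in 2 and the nuclear receptor core in 1, while 4 windows held none of them. Over all 32851 promoter windows of this length, 38.6%, 17.8% and 14.0% held these motifs. The window of Edn2 held 1 hypoxia core, and that of Flt1 held 1 hypoxia core and 2 cyclic AMP cores, which overlap on opposite strands. Neither the Apln window nor the Vegfa window shown held any of the motifs, and the windows of Vegfc and Edn1, which are not shown, held none either. A second Vegfa window, at a start inside the gene (chr17:46025164-46025413), held 2 hypoxia cores and 1 cyclic AMP core, which overlaps a hypoxia core. These matches are descriptions of letters, not of bound sites.

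Of the 10 members, 5 were well above background in at least 4 of 5 arrays of every stage (Vegfa, Vegfb, Vegfc, Edn2 and Kdr), and only these entered the test with the filter of the study. Among them, 1 was called from NC1 to C1 (Vegfa), where 2.92% of 12643 genes were called. From C1 to C2, 2 were called (Vegfa and Vegfc; 49.6% of genes), between NC1 and C2 3 were called (Vegfa, Vegfc and Edn2; 53.1%), and the F-test over the 3 stages called the same 3 (53.7%). All of these were higher at the later stage. These shares are within what all genes show between the prophase I stages and C2, so the counts say nothing about the members as a set.

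The other 5 members (Apln, Edn1, Angpt2, Flt1 and Aplnr) and the 10-spot probe of Kdr were dim at a stage and were tested with a filter that asks for 4 of 5 arrays in at least 1 stage. A probe that passes only through its bright stage had to differ, so its count is a description. With that filter Vegfa and Apln were called higher at C1 than at NC1 and no member lower, against 2.42% and 0.919% of 15023 genes. Apln kept this call, but Vegfa lost it in that fit with the replicate number or the slide as a block, with scaling to the median of all probes, with the authors' table and without NC1 replicate 3. From C1 to C2, 2 members were higher (Vegfa and Vegfc) and 4 lower (Angpt2, Edn1, Flt1 and Aplnr), against 24.7% and 25.8% of genes. Between NC1 and C2, 4 were higher (Vegfa, Vegfc, Apln and Edn2) and the same 4 lower, against 25.9% and 28.2%. Calls use limma and a Benjamini-Hochberg adjusted p of 0.01. Where at most 1 array of a stage was above background, a fold written "at least" uses the lowest signal of any probe above background. That fold has no test of its own. The adjusted p beside it belongs to the fitted difference, which reads signals below background. The fold is not a strict limit, since Aplnr at -3.66 in C1 replicate 3 was not above background. The comparisons of C1 with NC1 and of C2 with C1 share the C1 arrays.

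**Figure D1:**
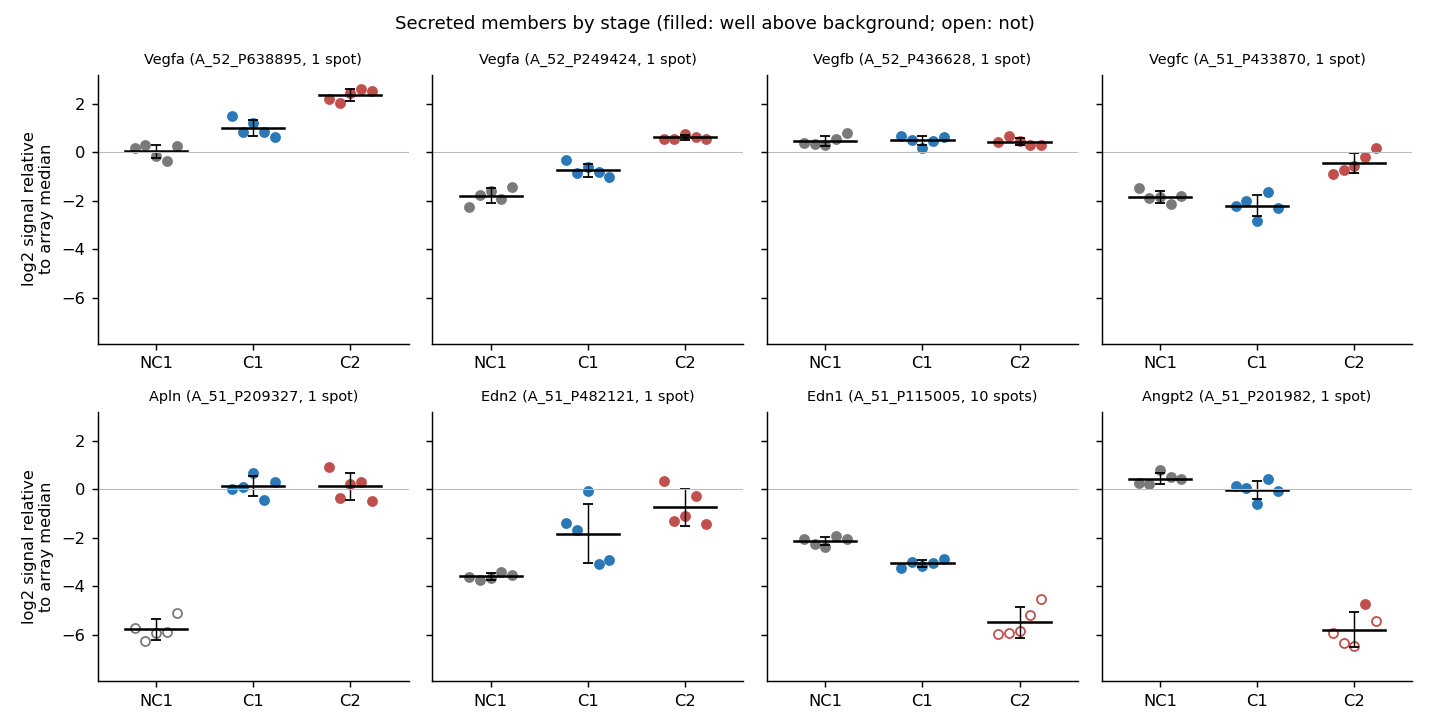
Log2 signal relative to the array median (y axis) of the 8 probes for the 7 secreted signals on each array, by stage (x axis). Filled points are well above background, bars are the mean and SD of 5 arrays, both Vegfa probes step up at C1 and again at C2, Apln is seen only from C1 on, and Edn1 and Angpt2 sink to background at C2.

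Vegfa rose at each step. On probe A_52_P638895 the level was 0.15, 0.27, -0.15, -0.37 and 0.23 in the 5 NC1 arrays, 1.48, 0.84, 1.21, 0.83 and 0.63 in the C1 arrays, and 2.17, 2.02, 2.45, 2.58 and 2.52 in the C2 arrays. No C1 array overlapped an NC1 array, and no C2 array overlapped a C1 array. The difference from NC1 to C1 was 0.97 on the log2 scale (SE 0.17, 1.96-fold, adjusted p = 0.00235), from C1 to C2 it was 1.35 (SE 0.17, 2.55-fold, adjusted p = 4.41e-06), and from NC1 to C2 it was 2.32 (5.00-fold, adjusted p = 6.24e-09).

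The second Vegfa probe, A_52_P249424, gave 1.06 from NC1 to C1 (SE 0.15, adjusted p = 0.000291) and 1.34 from C1 to C2 (SE 0.15, adjusted p = 9.37e-07). Its arrays lay between -2.26 and -1.45 at NC1, between -1.04 and -0.33 at C1 and between 0.54 and 0.74 at C2, again with no overlap. Both probes thus gave the same order of stages, and over the 15 arrays they had a Pearson correlation of 0.971. With slide as a block the first step of A_52_P638895 was 0.93 and just missed the threshold (adjusted p = 0.0103), whereas that of A_52_P249424 kept its call. Neither probe passed at this step with scaling to the median of all probes or with the authors' table. Within the 4 slides, each of which held all stages, this first difference of A_52_P638895 lay between 0.36 and 1.28, and its C2 against C1 difference between 0.96 and 1.81.

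Vegfb, the ligand of Flt1, did not pass the test in any comparison. Its level lay between 0.30 and 0.78 at NC1, between 0.16 and 0.68 at C1 and between 0.30 and 0.66 at C2, with all stages overlapping. The difference was 0.017 from NC1 to C1 (95% interval -0.24 to 0.28, adjusted p = 0.975) and -0.053 from C1 to C2 (95% interval -0.31 to 0.21, adjusted p = 0.738). Changes as large as those of Vegfa at either step lie outside these intervals.

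Vegfc, the lymphatic growth factor, was higher at C2 only. Its arrays read -1.47, -1.90, -1.87, -2.15 and -1.79 at NC1, -2.23, -2.01, -2.83, -1.65 and -2.31 at C1, and -0.90, -0.72, -0.57, -0.19 and 0.16 at C2. The C2 arrays did not overlap those of either prophase I stage. The level rose by 1.76 from C1 to C2 (SE 0.22, 3.39-fold, adjusted p = 3.14e-06) and was 1.39 above NC1 (2.62-fold, adjusted p = 3.36e-05). From NC1 to C1 the difference was -0.37 (SE 0.22, adjusted p = 0.439), with overlapping arrays.

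Apln, the gene of the apelin peptide, went from background at NC1 to near the array median at C1 and C2. At NC1 it was well above background in 0 of 5 arrays, with readings from -6.27 to -5.10. At C1 the arrays read 0.01, 0.08, 0.69, -0.43 and 0.30, and at C2 0.93, -0.36, 0.22, 0.31 and -0.46. The C1 and C2 arrays covered the same range, and all of them stood apart from NC1. Against the lowest signal that was well above background on the NC1 arrays, Apln was at least 28.9-fold higher at C1 and at least 28.8-fold higher at C2. The fitted difference from NC1 was 5.91 to C1 (adjusted p = 3.59e-09) and 5.90 to C2 (adjusted p = 8.33e-11). Both rest on NC1 readings below background. Between C1 and C2 the difference was -0.0050 (95% interval -0.59 to 0.58, adjusted p = 0.990). Within slides the difference from NC1 to C1 was between 5.50 and 6.57.

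The endothelins went in opposite directions. Edn2, whose peptide is known in the ovary for contraction of the follicle wall near ovulation, read -3.60, -3.76, -3.66, -3.42 and -3.52 at NC1, -1.38, -1.66, -0.07, -3.09 and -2.91 at C1, and 0.36, -1.29, -1.11, -0.26 and -1.41 at C2. The NC1 arrays were close together, the C1 arrays spread widely with replicates 4 and 5 low and replicate 3 high, and the C2 arrays lay above all NC1 arrays. Edn2 was 2.85 higher at C2 than at NC1 (SE 0.46, 7.21-fold, adjusted p = 5.01e-05). The single steps missed the threshold, with 1.77 from NC1 to C1 (SE 0.46, adjusted p = 0.0349), although no arrays overlapped, and 1.08 from C1 to C2 (SE 0.46, adjusted p = 0.0565). Without C1 replicate 4 the first step passed (2.09, adjusted p = 0.00983), and without C1 replicate 3 the second passed (1.52, adjusted p = 0.00304).

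Edn1, the endothelin known from vessel walls, read -2.06, -2.24, -2.37, -1.90 and -2.05 at NC1 and -3.22, -2.98, -3.17, -3.02 and -2.86 at C1, and it was well above background in 0 of 5 C2 arrays, where readings ran from -5.97 to -4.52. The stages followed each other downwards with no overlap. At C2 it was at least 3.35-fold lower than at C1 (adjusted p = 2.52e-07) and at least 6.35-fold lower than at NC1 (adjusted p = 4.97e-09). From NC1 to C1 the difference was -0.92 (SE 0.23, adjusted p = 0.0243), which missed the threshold but passed without C2 replicate 5, which enters only through the shared variance (adjusted p = 0.00186).

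Angpt2, the vessel-loosening angiopoietin, read 0.26, 0.23, 0.81, 0.51 and 0.41 at NC1 and 0.13, 0.05, -0.61, 0.43 and -0.07 at C1. At C2 it was well above background in 1 of 5 arrays (replicate 4, at -4.74), and the others read -5.43 or less. The prophase I stages overlapped and differed by -0.46 (SE 0.28, adjusted p = 0.456), while every C2 array was far below them. Against the lowest signal above background on the C2 arrays, Angpt2 was at least 26.8-fold lower at C2 than at C1 (adjusted p = 2.24e-10) and at least 36.9-fold lower than at NC1 (adjusted p = 6.08e-11).

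**Figure D2:**
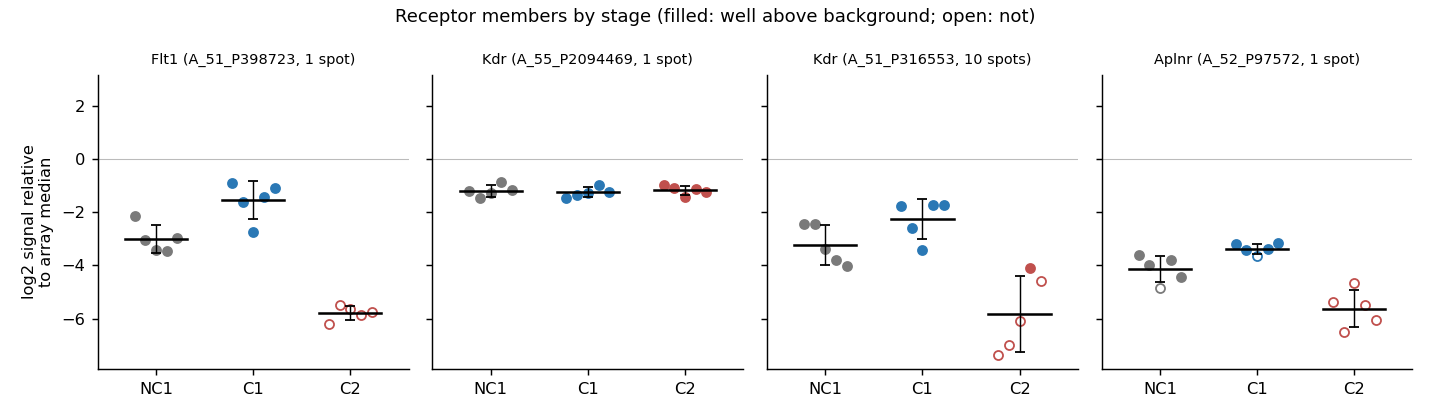
Log2 signal relative to the array median (y axis) of the 4 probes for the receptors Flt1, Kdr and Aplnr on each array, by stage (x axis). Filled points are well above background, bars are the mean and SD of 5 arrays; Flt1, the 10-spot probe of Kdr and Aplnr sink to background at C2, and the 1-spot probe of Kdr stays level.

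The receptor Flt1 was highest at C1 and at background at C2. Its arrays read -2.12, -3.02, -3.43, -3.46 and -2.97 at NC1, -0.89, -1.61, -2.72, -1.41 and -1.10 at C1, and -6.19 to -5.50 at C2, with 0 of 5 C2 arrays well above background. NC1 and C1 overlapped through NC1 replicate 1, the highest of its stage, and C1 replicate 3, the lowest of its stage. From NC1 to C1 the difference was 1.45 (SE 0.31, 2.74-fold), with an adjusted p of 0.0101 that just missed the threshold. It passed without NC1 replicate 1 (1.67, adjusted p = 0.00308) and without C1 replicate 3 (1.75, adjusted p = 0.000537). From C1 to C2 Flt1 was at least 9.50-fold lower (adjusted p = 1.66e-08), and it was at least 3.47-fold lower at C2 than at NC1 (adjusted p = 1.23e-06).

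The probes of Kdr, the main signalling receptor for Vegfa, disagreed. The 10-spot probe A_51_P316553 read -2.43, -2.42, -3.38, -3.81 and -4.01 at NC1, -1.75, -2.59, -3.41, -1.70 and -1.73 at C1, and was well above background in 1 of 5 C2 arrays (replicate 4, at -4.08), where readings went down to -7.38. It overlapped between NC1 and C1 (0.97, SE 0.59, adjusted p = 0.446) and was at least 5.25-fold lower at C2 than at C1 (adjusted p = 8.02e-05). The 1-spot probe A_55_P2094469 lay between -1.45 and -0.84 at NC1, between -1.44 and -0.95 at C1 and between -1.41 and -0.97 at C2. Its difference was -0.067 from NC1 to C1 (95% interval -0.34 to 0.20, adjusted p = 0.863) and 0.086 from C1 to C2 (95% interval -0.18 to 0.35, adjusted p = 0.583).

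Both Kdr probes carry the same transcript accession in the files, and over the 15 arrays their correlation was -0.28. Because A_55_P2094469 had the higher mean, it stood for Kdr in the gene counts above, and Kdr was then not called in any comparison. With A_51_P316553 in its place, Kdr was lower at C2 than at C1 and than at NC1 (at least 2.67-fold, adjusted p = 0.00115), the latter not without NC1 replicates 1 and 2 (adjusted p = 0.0162). No direction is therefore given for Kdr as a gene.

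Aplnr, the apelin receptor, was dim throughout. It was well above background in 4 of 5 arrays at NC1 and at C1 (not in replicate 3 of either) and in 0 of 5 at C2. Readings lay between -4.86 and -3.61 at NC1, between -3.66 and -3.17 at C1 and between -6.53 and -4.67 at C2. C2 did not overlap C1 but overlapped NC1 through NC1 replicate 3. Aplnr was at least 2.68-fold lower at C2 than at C1 (adjusted p = 9.26e-06) and at least 1.58-fold lower than at NC1 (adjusted p = 0.000425), and its difference of 0.76 from NC1 to C1 was not called (SE 0.30, adjusted p = 0.184). The step at which Apln appeared, from NC1 to C1, thus had no called change of its receptor.

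**Figure D3:**
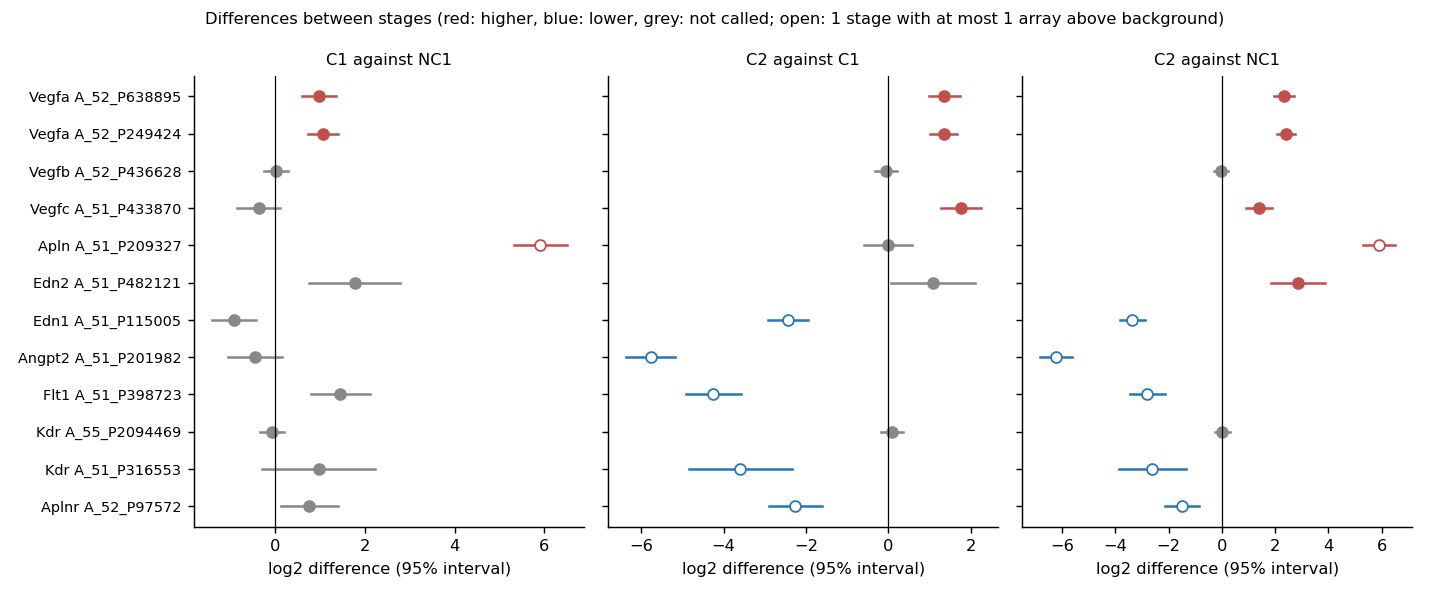
Log2 differences between stages (x axes, 3 panels) with 95% intervals for the 12 member probes (y axis), in the fit with the filter on at least 1 stage. Red is called higher, blue called lower and grey not called; open points have a stage with at most 1 array above background, where the fitted value reads signals near background.

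The receptors were set beside the other endothelial genes. Of 7 endothelial markers that were above background at all stages, 5 were lower at C2 than at C1 (Esam, Egfl7, Cd34, Mmrn2 and Icam2), 1 was higher (Cdh5) and 1 was not called, where 49.6% of all genes were called. Their median difference was -2.14, against 0.02 over all genes tested. With the filter on at least 1 stage, 13 of 16 were lower and Cdh5 higher, against 25.8% and 24.7% of all genes. Of these 13, Sox18, Robo4, Cldn5, Ecscr, Emcn, Eng, Plvap and Vwf were above background in at most 2 of 5 C2 arrays. They passed through prophase I stages alone and so had to be lower at C2. Sox18 was at least 10.5-fold lower and Cldn5 at least 10.3-fold. The difference of Robo4 (-4.24 on the log2 scale) rests partly on C2 readings below background. Cdh5, the cadherin of endothelial junctions, rose 2.82-fold (adjusted p = 0.000125), and Pecam1, another defining surface protein, differed by -0.28 (adjusted p = 0.279). Tek, Erg and Prox1 were above background in 0 of 15 arrays, and Tie1 in 1.

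From NC1 to C1, where 2.92% of all genes were called, 0 of the 7 endothelial markers were called by limma at an adjusted p of 0.01. At 0.05, 3 passed (Esam, Icam2 and Mmrn2), all higher at C1, and 5 had an unadjusted p under 0.05. Of these, Icam2 and Mmrn2 were called when NC1 replicate 1 or C1 replicate 3 was left out. Their median difference was 0.83, against -0.04 over all genes. With the wider filter Emcn, a sialomucin of the endothelium, was called higher at C1 (at least 2.07-fold, adjusted p = 0.00513), though its arrays overlapped. Emcn was above background in 1 of 5 NC1 and 0 of 5 C2 arrays, so it passed that filter through C1 alone and its call is a description. In that fit 4 markers were called without NC1 replicate 1 (Ecscr, Emcn, Icam2 and Mmrn2) and 5 without NC1 replicates 1 and 2. The count was 0 when any of NC1 replicates 2 to 5 or C1 replicates 1, 2 or 5 was left out.

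**Figure D4:**
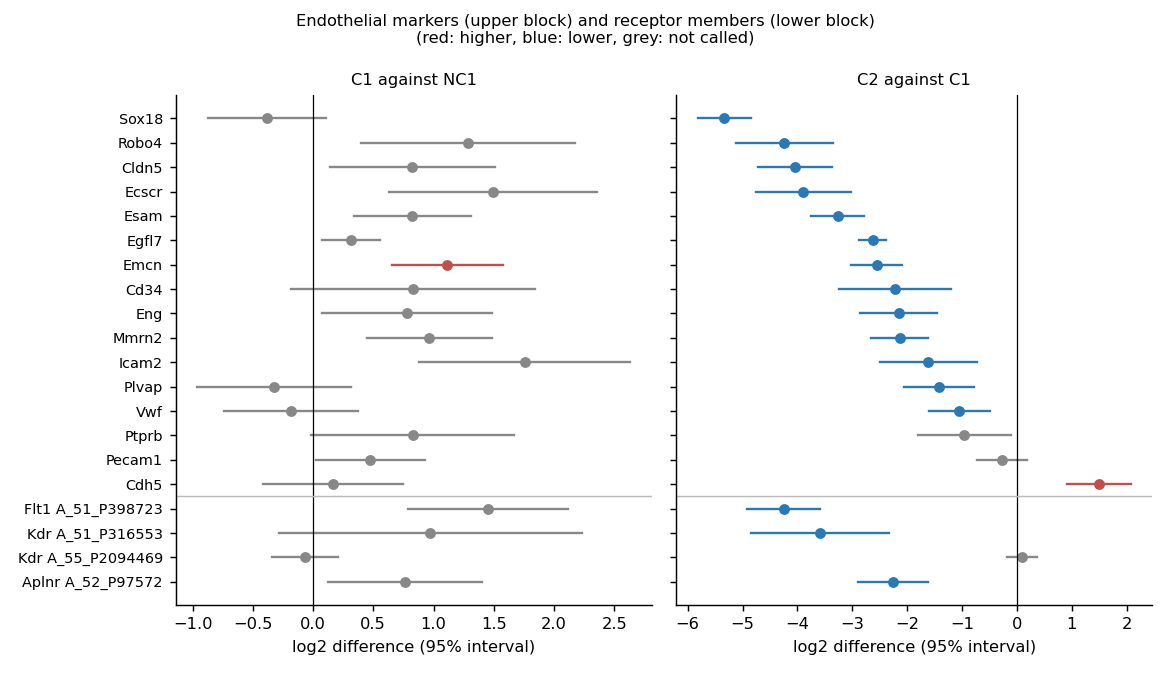
Log2 differences with 95% intervals (x axes) of 16 endothelial markers and the 4 receptor probes (y axis), from NC1 to C1 and from C1 to C2. Red is called higher, blue called lower and grey not called. From C1 to C2, 13 of the 16 markers and 3 of the 4 receptor probes are lower, against 25.8% of all genes. Cdh5 is higher, against 24.7%. Markers dim at C2 and these 3 receptor probes passed the filter through prophase I stages alone and so had to be lower at C2.

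Summed over 24 endothelial markers, the signal was 7.63 to 11.9 array medians at NC1, with replicate 1 highest, 9.99 to 16.8 at C1, with replicate 3 lowest, and 2.41 to 4.47 at C2. C2 did not overlap the prophase I stages, and the same arrays gave the highest Flt1 level of NC1 and the lowest of C1. Such sums are linear, so the brightest probes weigh most, here Egfl7 and Cd34, with mean levels of 2.42 and 1.48 at C1. Markers of other cell types moved as well. The summed signal of 8 theca and stroma genes was 9.98 to 49.3 at NC1, 9.55 to 16.2 at C1 and 0.469 to 0.649 at C2, and 12 pericyte and smooth muscle genes gave 13.9 to 27.6, 10.4 to 13.8 and 5.71 to 7.52. Leukocyte genes (9) gave 3.29 to 6.43, 4.70 to 5.72 and 6.22 to 9.39. Oocyte genes (10) summed to 12.8 to 50.9 at NC1 and 13.0 to 40.7 at C1. At C2 their sum was 13.6 to 17.3 in replicates 1 to 3 but 0.672 and 0.782 in replicates 4 and 5, so that these arrays stood apart. With the wider filter 6 of 10 oocyte genes were lower at C2 than at NC1, against 28.2% of all genes. All of these but Npm2 passed that filter through prophase I stages alone. Without C2 replicates 4 and 5 no call of a member at C2 changed with either filter. Granulosa genes fell too: 12 of 15 tested were lower at C2 than at C1, where 49.6% of all genes were called in either direction. Their summed signal was 372 to 461 at C1 and 76.1 to 104 at C2. The part of carried-over cells in the receptor results was not tested.

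Set beside the ligands, the endothelial, theca and pericyte sums were lowest at C2, where Vegfa and Vegfc were highest and Angpt2 and Edn1 lowest. Edn2 was higher there than at NC1, while its C2 and C1 arrays overlapped. Apln rose between NC1 and C1 by at least 28.9-fold, while the endothelial sums of these stages had medians of 8.45 and 13.5. The oviduct epithelium sum (8 genes) was 7.25 to 11.9 at C1 and 25.0 to 30.4 at C2, with no overlap. Its brightest genes at C2 were the keratins Krt18 and Krt8 (mean levels of 3.85 and 3.28), which already stood at 2.08 and 1.98 at C1. Of the others, Pax8 was above background in no array, and Cdh1 was not called in any comparison. Foxj1 was above background in 3 arrays at NC1, 1 at C1 and 3 at C2. From C1 to C2 the keratins Krt8 and Krt18 rose while Epcam and Tppp3 fell. Ovgp1, the secreted oviductal glycoprotein and the most specific gene of the list, had a mean level of -1.80 over the NC1 arrays, -0.76 over the C1 arrays and 1.52 over the C2 arrays. It was 3.32 higher at C2 than at NC1 (adjusted p = 0.00347), where neither Epcam nor Tppp3 was called lower, and 2.28 higher than at C1, which was not called (adjusted p = 0.0343). The part of the oviduct in the C2 levels of Vegfa, Vegfc and Edn2 was not tested.

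**Figure D5:**
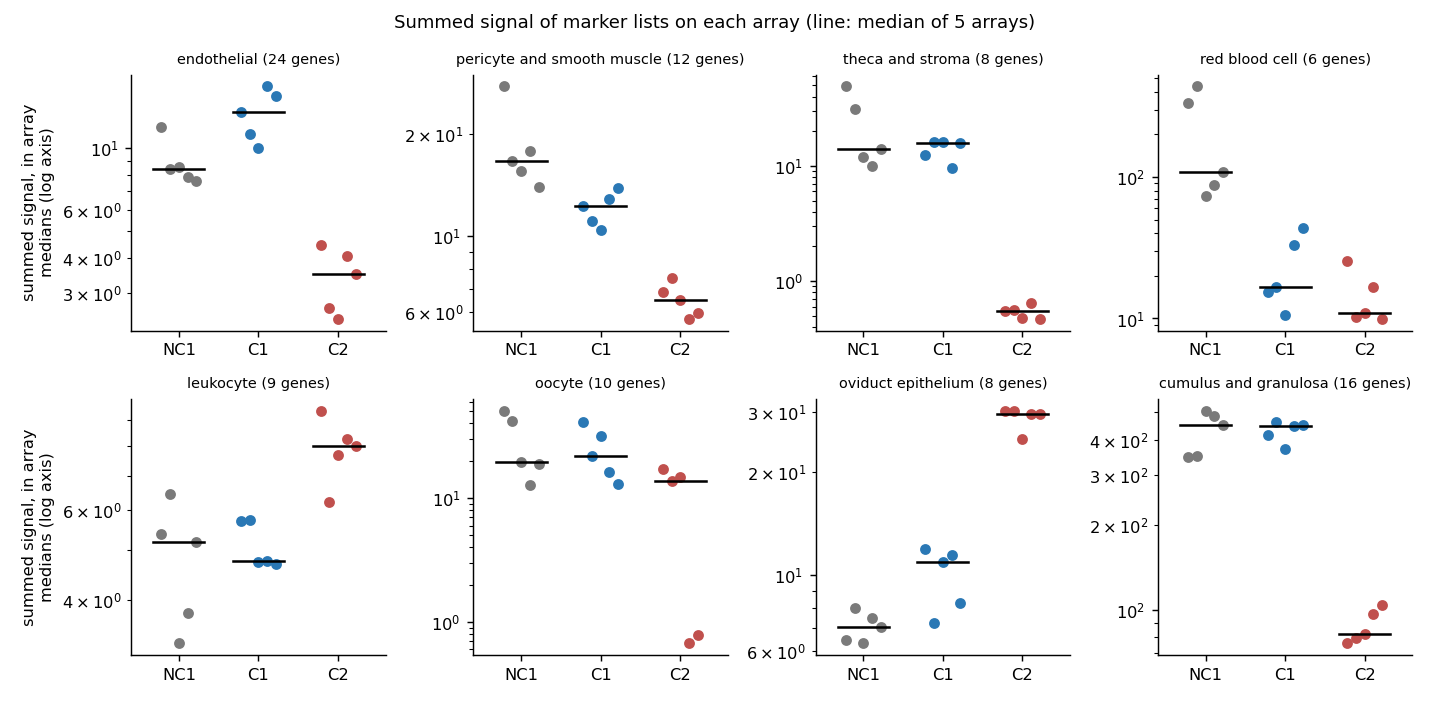
Summed linear signal, in array medians (y axes, log scale), of 8 marker lists on each array, by stage (x axes), with the line at the median of 5 arrays. Endothelial, pericyte, theca and granulosa sums are lowest at C2, leukocyte and oviduct epithelium sums are highest there, and red blood cell sums are highest at NC1. Oocyte sums split at C2, with replicates 4 and 5 at 0.672 and 0.782 and the others at 13.6 to 17.3.

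Further genes of these pathways were read from 7 lists of 62 genes, of which 61 had a probe. At all stages 32 were above background, and of these 11 were higher and 10 lower at C2 than at C1 and 11 were not called, where 49.6% of all genes were called, with a median difference of 0.30 against 0.02. From NC1 to C1, 3 were higher (Adamts1, Timp3 and Bhlhe40) and 1 lower (Nos2), where 2.92% of all genes were called. The named genes that follow come from the fit with the wider filter.

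Of the other genes of the VEGF family, Nrp1, a co-receptor, rose by 1.13 from C1 to C2 (adjusted p = 0.00615) and was the only one called of 4 tested, though it was above background in 3 of 5 C1 arrays and passed the filter through C2 alone. The placental factor Pgf, Vegfd and Nrp2 were not called, and Flt4, the receptor for Vegfc, was above background in 0 of 15 arrays. Angpt1, the angiopoietin that steadies vessels, was 2.81 higher at C2 than at NC1 (adjusted p = 0.000109), while Angpt2 was lower. Its steps of 1.49 from NC1 to C1 (adjusted p = 0.0961) and 1.32 from C1 to C2 (adjusted p = 0.0278) were not called. Both genes of the endothelin list that were above background at all stages (Ednra and Ece1) were lower at C2 than at C1, where 49.6% of all genes were called. The other 2 tested were lower too, but passed the wider filter through prophase I stages alone. The differences were -2.23 for the receptor Ednra (adjusted p = 3.72e-07), at least 2.00-fold for the receptor Ednrb and -1.49 for the converting enzyme Ece1. The summed signal of this list was 6.59 to 10.6 at C1 and 1.63 to 2.44 at C2.

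Among 11 tested genes of other vasoactive systems, 5 were higher and 5 lower at C2 than at C1, against 24.7% and 25.8% of all genes. Of the 7 that were above background at all stages, 3 were higher and 3 lower, where 49.6% of all genes were called. Ramp2, a partner of the adrenomedullin receptor, rose by 3.46 on the log2 scale and Ace, the angiotensin-converting enzyme, by 2.44. Npr1, the receptor of atrial natriuretic peptide, was above background in 1 of 5 C1 arrays and rose at least 3.01-fold, so its place among these is not known. Npr1 passed the filter through C2 alone and so had to be higher there. The adrenomedullin gene Adm itself rose by 2.24 (adjusted p = 2.01e-08), but its receptor Calcrl was above background in 0 of 15 arrays. Among the genes that fell were Nos3 (-3.64), the endothelial nitric oxide synthase, Agt (-3.36), which encodes angiotensinogen, and Ptgis (-3.27), the prostacyclin synthase. Agtr2, a receptor for angiotensin, was above background in 0 of 5 C2 arrays and fell at least 2.63-fold. The leading probe of Nos3 was above background in 2 of 5 C2 arrays, so its -3.64 rests partly on readings below background. Both genes passed the filter through prophase I stages alone. Nos2 was the only one called from NC1 to C1, where it fell by 0.97, through leading probes, while a second probe of Nos3 was higher there (1.16, adjusted p = 0.00117).

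Of the 9 oxygen sensing genes that were above background at all stages, 5 were higher and 1 lower at C2 than at C1, where 49.6% of all genes were called. Their median difference was 0.82 against 0.02 over all genes. The wider filter added Egln1, Egln3 and Adora2b, which passed it through C2 alone and so had to be higher there. Ndrg1 (3.88), Bhlhe40 (3.59) and Ankrd37 (2.33), all known to respond to low oxygen, rose most. Bhlhe40 was also higher at C1 than at NC1 (1.18). Hif1a, the oxygen-regulated factor, rose by 0.92 (adjusted p = 0.00759) with overlapping arrays. The leading probe of Epas1, its relative, fell by 2.36, but of its other probes 1 fell (-1.58) and 1 was not called (0.43). Of 10 inhibitors and modulators of angiogenesis above background at all stages, 3 were higher at C2 than at C1 (Col18a1 by 3.32, Pdgfa and Angptl4) and 4 lower, where 49.6% of all genes were called. The wider filter tested 13 and added Serpinf1 and Hbegf as lower. Both were above background in 3 of 5 C2 arrays, passed through prophase I stages alone and so had to be lower at C2. Serpinf1, which encodes the inhibitor PEDF, differed by -6.04 and Hbegf by -4.01, sizes that rest partly on C2 readings below background. Ccn1 differed by -2.05.

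Across the 15 arrays, the genes whose levels were most like those of Vegfa (A_52_P638895) were Tle5, Rora, Hdc, Galnt12 and Bhlhe40, with Pearson correlations of 0.972 to 0.966 among 15824 named probes. All of these points share the large step at C2. After subtraction of stage means the 5 most alike were Csrnp1, Ddx20, Wdr43, Gm5766 and 5033418A18Rik (0.918 to 0.884), none of them in the first group. For the level 1-spot probe of Kdr the closest were Tmem215, LOC100047131, 4931402H11Rik, Cnnm3 and Entr1 (0.909 to 0.849), and after subtraction of stage means 4931402H11Rik, Srgap2, Pxylp1, Epas1 and Uts2r (0.936 to 0.919).

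Flt1 and the 10-spot probe of Kdr are dim at C2, and their likeness was read over the 10 prophase I arrays, a choice made after the values were seen. Flt1 was most like Plpp1, Ctla2a, Ly6c1, Cd93 and Bace2 (0.983 to 0.958), and with stage means subtracted Plpp1, Ctla2a and Ly6c1 stayed among the first 5, with Gimap6 and Pitpnm2. The 10-spot probe of Kdr was most like Eva1a, Ccl5, Robo4, Sema3f and Icam2 (0.943 to 0.915). Robo4 and Icam2 are among the 24 endothelial markers. With stage means subtracted Bicd2, Eva1a, Palld, Robo4 and Sema3f came first (0.921 to 0.903). The nearest genes of the 1-spot Kdr probe held no marker of that list, by either measure. They were sought over all 15 arrays, among probes above background at every stage, which left out Robo4 and other markers dim at C2. The nearest genes of the 2 Kdr probes therefore cannot be set against each other. These correlations describe arrays that share slides, and they carry no test.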

How the data were processed

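Cumulus cell RNA was hybridised to 15 1-colour Agilent arrays (Cy3), 5 per stage. The authors deposited scanner intensity values extracted with Agilent Feature Extraction (10.7.1.1 in the deposited headers, 10.5.1.1 in the labels). Their series table, also deposited, held log2 values that the authors had scaled to the median of each array and filtered on detection flags, whose columns matched the log2 processed intensity of the scanner files up to a constant per array (SD at most 0.00742).

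From the scanner files, spots flagged as outliers were dropped, spots of a probe averaged, and log2 intensity centred on the median of valid probes of each array. A probe was valid if well above background in at least 4 of 5 arrays of every stage (17324 probes), or, for dim genes, of at least 1 stage (20844 probes). One model over all arrays was fitted with limma 3.58.1 (R 4.3.3), with contrasts between stages and an F-test, two-sided, and Benjamini-Hochberg adjustment over all valid probes at 0.01. The script was tested on simulated data. A gene with several probes was counted through the probe of highest mean. A fold written "at least" sets the bright stage against the lowest signal of any probe above background on the dim arrays, and was used where at most 1 of 5 arrays of a stage was above background. It has no test of its own, and the adjusted p beside it is that of the fitted difference. Of 39429 gene probes 26055 were named through RefSeq accessions, 2770 through the authors' table and 10604 not at all. No spot was saturated, and signal over background and the number of arrays limit the precision. Samples are pools named as replicates in the labels, and p-values measure the spread between them.

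Members and lists were chosen with earlier results of these data known. Named genes were all members, up to 3 called genes per list and comparison with the largest difference, and the 5 genes most like Vegfa, Kdr and Flt1 by correlation. Markers and pathway genes outside this rule (Pecam1, Tek, Erg, Prox1, Tie1, Pgf, Vegfd, Nrp2, Flt4, Adm, Calcrl, Hif1a, Epas1, the second Nos3 probe, Krt8, Krt18, Epcam, Tppp3, Ovgp1, Ptgis, Egln1, Egln3 and Adora2b) were named after their values were seen. So were Ace, Agtr2, Pdgfa, Angptl4, Ccn1, Npm2, Pax8, Foxj1, Cdh1 and endothelial markers past the first 3 of a comparison. Alternatives covered scaling, background correction (normexp on median signals with an offset of 50), filters, blocks for slide and replicate number, an unmoderated test and arrays left out. Leaving out C2 replicates 4 and 5, or NC1 replicates 1 and 2, was chosen after seeing the data, as were the alternatives in the wider filter. Replicate numbers were not taken to pair the arrays, since only 4 of 15 correlations of same-numbered deviations were over 0.1. Between NC1 and C1 all 5 were positive (0.056 to 0.35) and 3 were over 0.1.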

Additional observations from a re-analysis of the deposited data

Results flagged for a closer look

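Over all sets of 5 arrays tested (members, endothelial markers and summed marker lists, by stage), 5 held an array far from the other 4, a number that chance alone would give at about 1 in 20 sets. For Esam the level in C2 replicate 3 was -4.70, for Emcn it was -4.22 in C1 replicate 4. In NC1 replicate 1 the summed endothelial signal was 11.9 array medians and the summed pericyte and smooth muscle signal was 27.6, both the highest of that stage. In C2 replicate 3 the summed oviduct epithelium signal was 25.0, the lowest of that stage. No member probe stood out in this way.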

How the results depend on the processing

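No result reversed under any alternative run. From NC1 to C1 the count of called members (1) was 2 with spike-in scaling (Edn2 and Vegfa), 2 with the filter on at least 1 stage, 2 at an adjusted p of 0.05, 0 with slide as a block and 0 with an unmoderated test, and 1 to 2 with 1 array left out. The Vegfa probe A_52_P638895 also missed the threshold with scaling to the median of all probes or the authors' table (0.86). So did the second probe, A_52_P249424 (0.96, adjusted p = 0.0118 in both). These scalings shift the median of all probes by -0.14 from NC1 to C1 and by 0.33 from C1 to C2 (spike-in scaling by 0.12 and -0.13). With no filter A_52_P638895 missed the threshold as well (adjusted p = 0.0137). With the wider filter it did so without NC1 replicate 3 and with replicate number or slide as a block. Members called from C1 to C2 (2) were 6 with the wider filter and 6 with none, and 2 to 3 with an array left out. Between NC1 and C2 (3) they were 8 and 8, and by the F-test (3) 8 and 8, since more genes were tested. Endothelial markers called from NC1 to C1 (0) were 1 with spike-in scaling, 1 with the wider filter, 2 without NC1 replicates 1 and 2, 3 at an adjusted p of 0.05, and 0 to 2 with an array left out. From C1 to C2 (6) they were 14 and, with no filter, 15, and between NC1 and C2 (4) 12 and 12. With replicate number as a block, 2 endothelial markers were called from NC1 to C1 (Icam2 and Mmrn2), and no other of these counts moved by over 1.5 times with the 3-stage filter. The numbers are not given as a shared source, but Vegfa lost its NC1 to C1 call under this block with the wider filter and kept it with the 3-stage filter. Flt1 from NC1 to C1 passed with 75th percentile scaling (adjusted p = 0.00992), spike-in scaling (0.00741) and normexp correction (0.00360), and Edn2 passed both steps with the authors' table (1.66 and 1.39). Aplnr between NC1 and C2 was lost with normexp correction (-0.51, adjusted p = 0.0187). Edn1 from NC1 to C1 passed without C2 replicates 4 and 5 (adjusted p = 0.000212), and Flt1 without NC1 replicates 1 and 2 (adjusted p = 0.00717).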
